A study of Mus musculus with 2 samples.

Results

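The genes described here encode the nuclear subunits of the mitochondrial respiratory chain and the ATP synthase, measured in a pair of related mouse blood cell lines. They were chosen by symbol: every gene whose name in the scanner output begins with Nduf, Sdha to Sdhd, Uqcr, Cox4i, Cox5, Cox6, Cox7, Cox8 or Atp5. The rule found 89 genes, read by 119 probes at 128 spots, among 31709 genes, 39429 probes and 43020 spots on the array. Of these genes, 79 encode subunits of the 5 complexes, 6 are assembly factors (Ndufaf1 to Ndufaf4, Sdhaf1 and Sdhaf2) and 4 are relatives of a subunit by name (Ndufa4l2, Cox7a2l, Atp5s and Atp5sl). The first cell line was BaF/3 (#BEB1), a single clone that came out of repeated sorting of Ba/F3 cells for binding of the secreted protein Ecrg4 after infection with a retroviral cDNA library. The second was the parental Ba/F3 line, a mouse pro-B line. Both were grown in the same medium with foetal calf serum and recombinant interleukin-3, no knockout or drug was named for either line, and each was measured on 1 Agilent 1-colour array.

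The respiratory chain passes electrons from nutrients to oxygen across the inner mitochondrial membrane. Complex I takes them from NADH and complex II from succinate, both hand them to ubiquinone, complex III passes them on to cytochrome c, and complex IV, cytochrome c oxidase, reduces oxygen. Protons pumped by complexes I, III and IV flow back through complex V, the ATP synthase. Most subunits are encoded in the nucleus and imported, while a small set is encoded by mitochondrial DNA, so that every complex except complex II is built from both genomes. Several subunits of complex IV also have alternative isoforms that are mainly found in heart and skeletal muscle, lung or testis.

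The direction between the cell lines is not settled. Over 39429 probes, Pearson's r of the authors' normalised BaF/3 (#BEB1) values was 0.999996 with the scanner output filed under the parental line, against 0.982286 with that filed under BaF/3 (#BEB1). For the parental values it was 0.999998 with the output filed under BaF/3 (#BEB1) and 0.982285 with that filed under the parental line, so that the tables and the scanner output name the arrays in opposite ways (these are correlations over probes, which are no replicates). Array A is therefore the array listed as BaF/3 (#BEB1) in the normalised table and as parental in the scanner output, and array B is the other. Every difference is array A minus array B, which is BaF/3 (#BEB1) minus parental by the table and the reverse by the scanner output. Olr1, the gene of the Ecrg4 receptor LOX-1, which was cloned from a BaF/3 (#BEB1) cDNA library, had a level of 3.11 on array A versus −1.90 on array B (5.01), higher in BaF/3 (#BEB1) by the table and lower by the scanner output. With 1 array per cell line there was no replicate error and no test, and counts past a fold are sizes only. The level of a gene is the log2 of its background-subtracted signal divided by the array's 75th percentile, which was 1506 on array A versus 1080 on array B. A probe was taken as measured where Feature Extraction, the scanner software, called it well above background. Levels of different probes are on scales of their own. They were compared with each other only to rank genes by brightness and to pick the brightest probe of a gene. Of the pro-B and Ba/F3 markers, 5 of 10 were well above background on both arrays, and they went both ways: Ptprc differed by 0.75 and Il3ra by 0.40, and Csf2rb by −1.86, Vpreb1 by −1.39 and Cd79b by −2.30. The B-lineage genes Cd79a, Ebf1 and Pax5 and the receptor gene Il7r passed the background call on neither array. Of 4 mast cell markers, Cpa3 differed by −5.44, Fcer1a passed the call on array B only, and Kit and Ms4a2 on neither. Their part in the results below was not tested. In bulk RNA, a change in the share of cells that express a gene cannot be told apart from a change in every cell.

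Probes are the sequences that the values rest on, and those of 5 genes at least 1.5-fold apart, and of Uqcrc2, the gene printed at the most spots, are shown here by the first 30 of their 60 bases, 5′ to 3′, all in lower case. Their positions are those given in the scanner output for mm9, and the exon or UTR they lie in was not looked up. The Ndufa4l2 probe lies at chr10:126954149-126954208 on the plus strand, and that of Cox7a1 at chr7:30970337-30970948 on the plus strand, an interval longer than the probe. The probe of Ndufs4 lies at chr13:115078980-115079039, that of Cox6a2 at chr7:135349160-135349219 and that of Uqcr at chr10:79865745-79865804, all on the minus strand. The Uqcrc2 probe, which was printed at 10 spots, lies at chr7:127802599-127802658 on the plus strand.
Ndufa4l2: tgtccctggggatcaaacagaagcagccgt
Cox7a1: acaacgtcctgtacagactgaccatgacgc
Ndufs4: aaacccaagtccaagtcttatggtgcaaac
Cox6a2: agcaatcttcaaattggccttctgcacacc
Uqcr: tgttgacagacactagggctgccttgatgg
Uqcrc2: cttttctcgacgagttataacacatgcgtg

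Of the 89 genes, 86 passed the background call on both arrays, none on 1 array only, and Cox7b2, Cox8b and Cox8c on neither. Most of them differed little between the arrays. Their median difference was 0.13, with quartiles of −0.13 and 0.30, against a median of −0.02 and quartiles of −0.40 and 0.34 over all 14815 measured genes. On array A, 53 genes (61.6%) were higher, against 33 on array B, and among all measured genes 48.7% were higher on array A. Past 1.5-fold towards array A were 5 of the 86 genes, where 12.5% of all measured genes passed that fold, and towards array B also 5, against 17.6% of all measured genes. Past 2-fold were 0 genes towards array A (3.85% of all measured genes) and 2 towards array B (7.30%). The genes were bright: 76 of the 86 lay in the brightest 3 deciles of the measured genes. For these 76, the median was 0.16 and 67.1% were higher on array A, beside 0.08 and 57.1% over the 4445 genes of these deciles. Past 1.5-fold towards array A were 4 of the 76 (11.5% of the genes of these deciles) and towards array B 3 (9.58%), and none of the 76 was past 2-fold in either direction (2.88% and 2.72%). The count past 1.5-fold turned on the scaling. When each array was scaled to its median, it became 23 towards array A and 2 towards array B, where 27.8% and 9.49% of all measured genes passed.

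**Figure D1:**
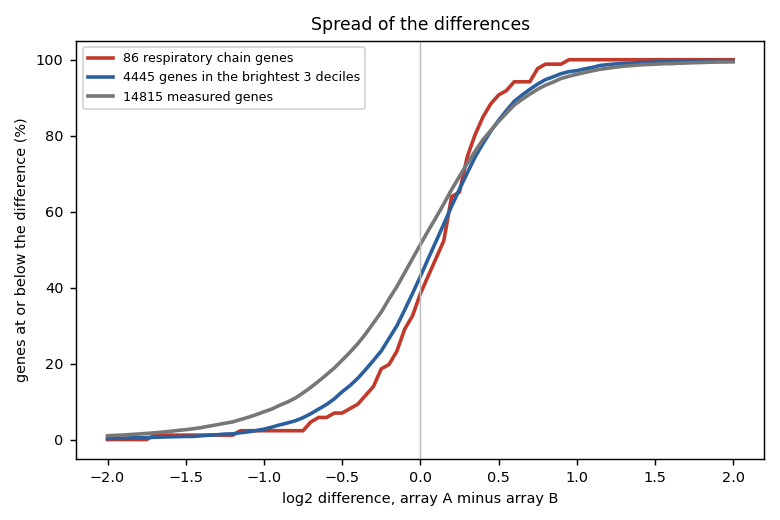
Share of genes (y axis, %) at or below each log2 difference, array A minus array B (x axis), for the 86 measured respiratory chain genes, the 4445 genes in the brightest 3 deciles and all 14815 measured genes. The curve of the 86 genes is the steepest, with quartiles of −0.13 and 0.30, against −0.40 and 0.34 over all measured genes.

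Complex I was measured in full, with 36 of 36 genes. Its median difference was 0.10, and 22 genes were higher on array A versus 14 on array B. At least 1.5-fold apart was 1 gene in each direction, against 12.5% of all measured genes towards array A and 17.6% towards array B. The gene with the largest difference was Ndufs4, an accessory subunit of the electron-input module mutations of which cause Leigh syndrome in humans. Its level was 4.41 on array A versus 3.47 on array B, a difference of 0.94 or 1.92-fold, read by 1 probe. At the other end stood Ndufv3, a small accessory subunit of the same module. It was read by 2 probes, with levels of −0.86 on array A versus −0.07 on array B for one and 4.50 and 5.04 for the other. Both probes were dimmer on array A, and the mean difference was −0.67 (1.59-fold), which was under 1.5-fold with scaling to the median, with normexp and with the brightest probe. The 7 core subunits carry the flavin, the iron-sulphur clusters and the ubiquinone site, and their median was 0.26, against 0.06 for the 29 accessory subunits. Among the core genes, Ndufs3, at the joint of the peripheral arm, had 4.71 on array A versus 4.14 on array B (0.57). Ndufs1, which binds several iron-sulphur clusters, had 4.66 and 4.17 (0.49), and Ndufs8, which carries a pair of clusters near the ubiquinone site, had 2.45 and 2.05 (0.40). These core genes leaned to array A. Nearer to 0 were Ndufv2 at 0.26, Ndufs7 at 0.16 and Ndufv1, which binds NADH, at −0.01. The sign of Ndufv1 turned when each array was scaled to its median.

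The accessory genes of complex I were spread on both sides of 0. Higher on array A were Ndufb6 (0.50) and Ndufa12 (0.39), a subunit near the electron-input module that replaces the assembly factor Ndufaf2 late in assembly. Higher on array B were Ndufa6 (−0.39), a LYR-motif protein, and Ndufa5 (−0.37), whose 2 probes both pointed to array B. Ndufab1, the mitochondrial acyl carrier protein, had −0.52 on array A versus −0.21 on array B (−0.31). It is also part of mitochondrial fatty acid synthesis. Ndufc1, Ndufc2, Ndufa9, Ndufa8, Ndufa3, Ndufa13, Ndufb9 and Ndufa11 lay between −0.06 and 0.08, and the sign of each changed with the scaling.

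Complex II is the only complex encoded by nuclear genes alone, and all 4 of its genes were higher on array A, with a median of 0.30, although Sdhd turned to −0.01 with scaling to the probes called above background on both arrays and to −0.03 with quantile scaling. Sdha, the flavoprotein that oxidises succinate, had a level of 4.13 on array A versus 3.80 on array B (0.33). Sdhb, the iron-sulphur subunit, had 4.72 on array A versus 4.46 on array B (0.27), and its 2 probes differed by 0.37 and 0.16. Sdhc, a membrane anchor, had 3.28 and 2.89 (0.39), with 0.49 and 0.29 for its probes. Sdhd, the other anchor, had 4.60 and 4.52 (0.07). The flavoprotein, the iron-sulphur subunit and 1 anchor thus had like differences, and the other anchor lay nearer to 0.

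Complex III had a median of 0.35 over 7 genes, with 5 genes higher on array A versus 2 on array B. Uqcrb, the small subunit that binds ubiquinone, was at 3.92 on array A versus 3.36 on array B (0.56). Its 3 probes agreed within 0.01, but they overlap in position and are not separate readings. Uqcrq followed with 5.71 and 5.24 (0.47). Uqcrfs1, the Rieske iron-sulphur protein and a catalytic subunit, had 4.19 on array A versus 3.84 on array B (0.35). The core proteins were at 0.35 for Uqcrc2 and 0.16 for Uqcrc1. On the other side stood Uqcr, named Uqcr11 in RefSeq, a small subunit, with 3.58 on array A versus 4.31 on array B (−0.72, or 1.65-fold), and under 1.5-fold with scaling to the median. Uqcrh, the hinge protein, had 5.10 and 5.38 (−0.28), and its sign turned to 0.01 with scaling to the median. Uqcr10, a further subunit of this complex that lies outside the naming rule because the scanner output has it under another name, differed by 0.22.

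Complex IV was measured in 15 of 18 genes, with a median of 0.15, 9 genes higher on array A versus 6 on array B. The 11 widely expressed genes had a median of 0.16. Cox4i1, the largest nuclear subunit, had 7.36 on array A versus 7.07 on array B (0.29), Cox5b had 5.37 and 5.11 (0.26), and Cox5a had 6.77 and 6.62 (0.15). Cox7c, a small membrane subunit, had the largest difference of this class, 0.71 (1.64-fold), which was under 1.5-fold with normexp. Its 3 probes read 3.93, 4.91 and −3.77 on array A, against 3.44, 4.0 and −4.50 on array B. All 3 were brighter on array A, by 0.50, 0.91 and 0.73, although the third was dim. Higher on array B were Cox6c (4.87 on array A versus 5.18 on array B, −0.31), Cox6a1 (7.39 and 7.67, −0.28) and Ndufa4 (4.19 and 4.32, −0.13), a subunit that was once assigned to complex I. Scaling to the median turned the signs of Cox6a1 and Ndufa4. Near copies of Cox6c and Cox5b are also on the array, Cox6c2 with a difference of −0.17 and Cox5b-ps with 0.34, so that sharing of signal between copies cannot be told apart from expression of each.

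The tissue-restricted isoforms of complex IV were measured in part and went both ways. Of 7 such genes, 4 were measured on both arrays, with a median difference of −0.23. Cox6a2, the form of heart and skeletal muscle, was not near background: its signal was 37368 on array A versus 16498 on array B, and its level 4.63 and 3.93 (0.70, or 1.62-fold). Its partner Cox6a1 was at −0.28, or 0.02 with scaling to the median. Cox7a1, also a muscle form, had signals of 535 on array A versus 854 on array B and levels of −1.49 and −0.34 (−1.15, or 2.23-fold), while its partner Cox7a2 was at 0.30. With scaling to the median Cox7a1 was at −0.86. Cox6b2, the testis form, was dim, with signals of 73.3 on array A versus 71.6 on array B and levels of −4.36 and −3.91 (−0.45), and its partner Cox6b1 was at 0.11. Cox4i2, the lung form, had levels of −3.80 and −3.78 (−0.02), with no settled sign, since it was at 0.27 with scaling to the median. Cox7b2, Cox8b and Cox8c passed the background call on neither array, while Cox7b was at 0.26 and Cox8a at 0.16. Other genes of these tissues gave no common direction. Of 5 striated muscle markers, Ckm had 1.69 on array A versus 1.51 on array B and Myh7 −3.58 and −2.81, and Myh6, Actc1 and Tnnt2 were not well above background. None of 5 male germ cell markers passed the background call on both arrays, and Prm1 did so on array B only. Their part in the isoform values was not tested.

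Complex V had a median of 0.03 over 14 genes, with 8 higher on array A versus 6 on array B, and was at −0.054 with scaling to the probes called above background on both arrays. The F1 head, where ATP is made, had a median of −0.03, with genes on both sides of 0. Atp5b, the catalytic beta subunit, was at 6.84 on array A versus 6.67 on array B (0.17). Atp5a1, the alpha subunit, was at 4.41 and 4.67 (−0.27), and Atp5c1 at −0.19, and the signs of both turned with scaling to the median. Atp5d was at 0.01 and Atp5e at −0.03. The c-ring genes Atp5g2 (7.08 and 6.91, 0.17) and Atp5g3 (5.58 and 5.53, 0.05), which encode the same mature protein, had a median of 0.11, although Atp5g3 turned to −0.03 with scaling to the probes called above background. The 4 genes of the peripheral stalk, which holds the head still, were all higher on array A, with a median of 0.28, except that the brightest probe of Atp5h gave −0.03. Atp5o, the oligomycin-sensitivity subunit at the top of the stalk, had 4.66 on array A versus 4.25 on array B (0.41). Atp5f1, subunit b, had 3.85 and 3.48 (0.37), Atp5j, or F6, was at 0.19 and Atp5h, subunit d, at 0.09. In contrast, the 3 genes of the membrane subunits e, f and g, which serve in the pairing of ATP synthases, were all higher on array B, with a median of −0.46, although Atp5l turned to 0.18 with scaling to the median. Atp5k, subunit e, was read by 2 probes with levels of 4.49 and 4.42 on array A, against 5.30 and 5.10 on array B. Both were dimmer on array A, and the mean difference was −0.74 (1.67-fold), and under 1.5-fold with scaling to the median. Atp5j2, subunit f, had 4.46 on array A versus 4.92 on array B (−0.46), and Atp5l, subunit g, had 4.21 and 4.32 over 5 probes (−0.11).

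**Figure D2:**
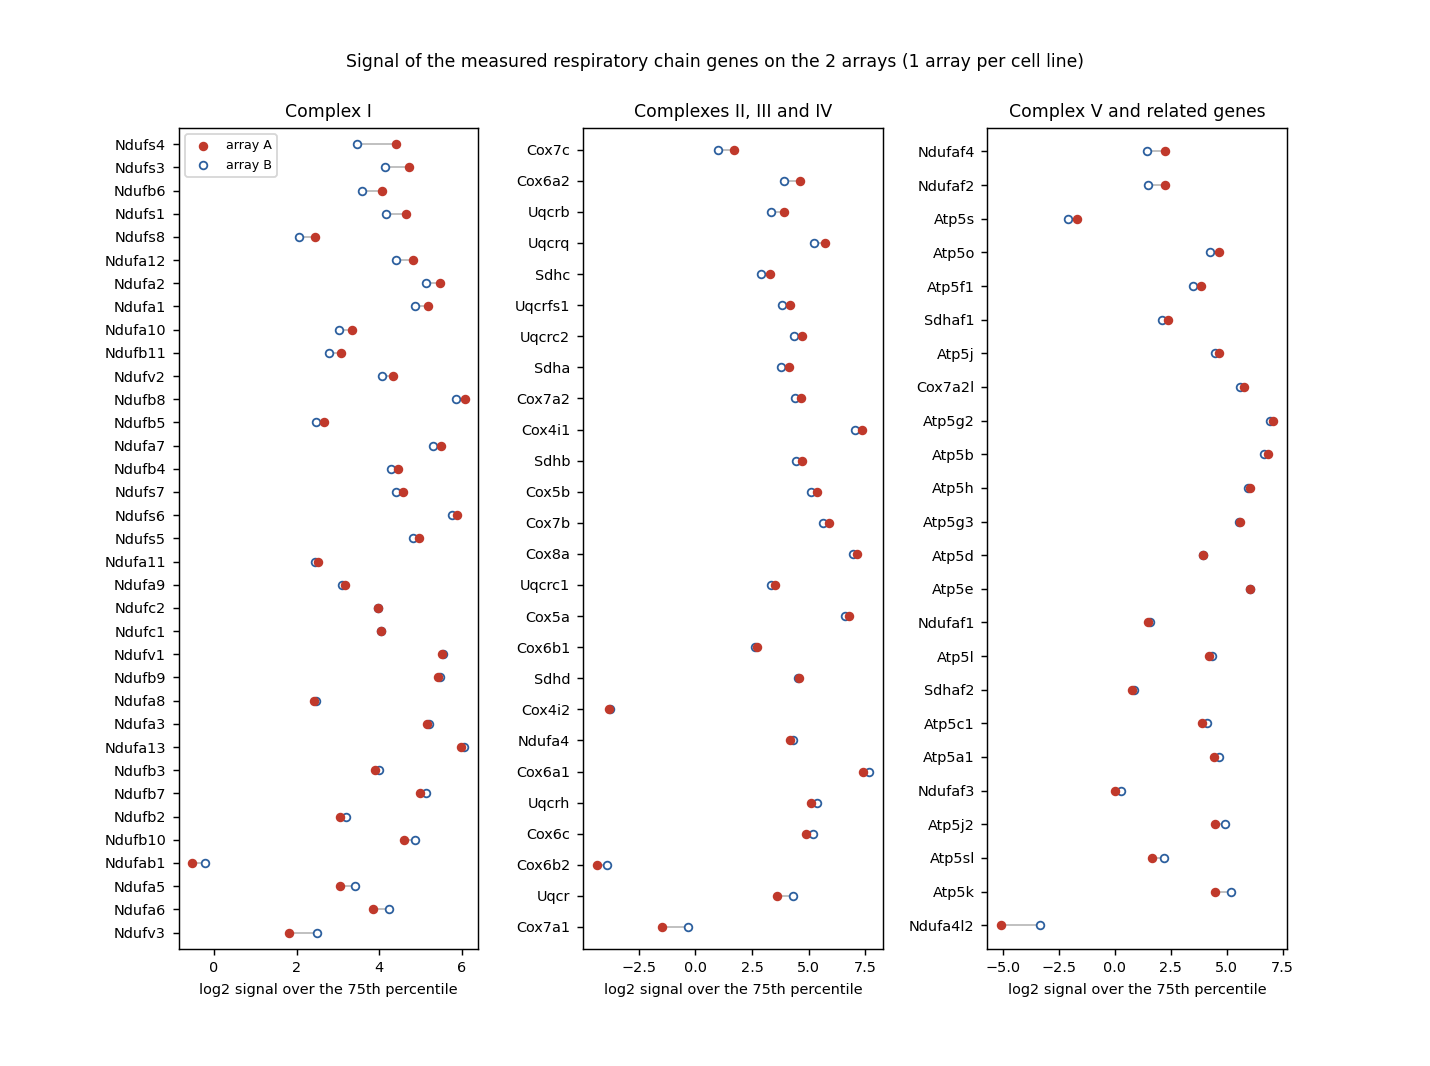
Levels (x axis, log2 signal over the array's 75th percentile) of the measured genes, 1 left out, on array A (filled) and array B (open), ordered within each panel by the difference. A gene is read only against itself: Ndufs4 (0.94) and Cox7c (0.71) are at the top and Ndufv3 (−0.67), Cox7a1 (−1.15) and Ndufa4l2 (−1.74) at the bottom of their panels.

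Among the assembly factors and relatives, the larger differences were those of 2 assembly factors and of Ndufa4l2. Ndufaf2, which is replaced by Ndufa12 in the finished complex I, had 2.23 on array A versus 1.48 on array B (0.75, or 1.68-fold). Ndufaf4, which acts early in complex I assembly, was read by 2 probes at 2.79 and 1.65 on array A, against 1.85 and 1.06 on array B, with a mean difference of 0.76 (1.70-fold). Both assembly factors were thus brighter on array A. Ndufaf1 was at −0.06 and Ndufaf3 at −0.27, and scaling to the median turned both signs. Ndufa4l2, a relative of Ndufa4 that is induced by low oxygen in many cells, had the largest difference of the 86 genes with the signals as deposited, but it was dim. Its signal was 44.4 on array A versus 106 on array B, where the lowest signals called well above background were 27.6 and 22.9. Its levels were −5.08 and −3.35, a difference of −1.74 or 3.33-fold, and with normexp background correction −1.02, where Cox7a1 at −1.13 was the larger. Cox7a2l, which takes part in the joining of complexes III and IV, was at 0.17. Sdhaf1 and Sdhaf2, assembly factors of complex II, were at 0.28 and −0.11, the second with its sign turned by scaling to the median. Atp5s and Atp5sl, named after the ATP synthase but now listed as Dmac2l and Dmac2, went opposite ways. Atp5s had −1.69 on array A versus −2.11 on array B (0.42), and Atp5sl had 1.65 and 2.21 (−0.56).

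The spread within an array was smaller than most of these differences, although it covers the spots of an array only and not the cultures. Over the 211 probes that were printed at 10 spots and well above background at each, the median SD between spots was 0.06 on array A versus 0.05 on array B, and 0.08 for the difference of single spots. Uqcrc2 is the only gene of the set printed in this way. Its levels were 4.67 to 4.78 on array A with a median of 4.70 and an SD of 0.03 over 10 spots, against 4.30 to 4.44 on array B with a median of 4.37 and an SD of 0.04. The 10 spots of array A did not overlap with the 10 of array B. These spots are copies of 1 probe and no replicates of a cell line. How many of the 211 probes were apart in the same way was not counted. A difference of the size of that of Uqcrc2 (0.35) was common: 27.8% of all measured genes lay at or below −0.35 and 75.9% at or below 0.35. Of the 86 genes, 72 had a difference larger than 0.08 and 58 had one larger than 2 times that value. The shares of all measured genes past these same sizes were not counted, so the counts say nothing particular to the 86. Sizes near them were common on the array: 43.9% of all measured genes lay at or below −0.1 and 58.4% at or below 0.1. For the 86 genes these shares were 29.1% and 47.7%. At −0.15 and 0.15 the shares were 40.3% and 62.0% of all measured genes, against 23.3% and 52.3% of the 86. Between different probes of a gene the spread was larger. In the 23 genes with several measured probes, some of which overlap in position, the median range between probes was 0.15. It was highest, 0.83, in Ndufb11, a membrane-arm subunit of complex I encoded on the X chromosome. Its bright probes, which overlap in position, read 5.86 and 5.71 on array A, against 5.29 and 5.20 on array B. Its dim probe read −2.37, against −2.12. The bright probes thus gave 0.58 and 0.52 and the dim probe −0.25. Atp5h was the only other gene with probes on both sides of 0, at −0.03 and 0.20.

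**Figure D3:**
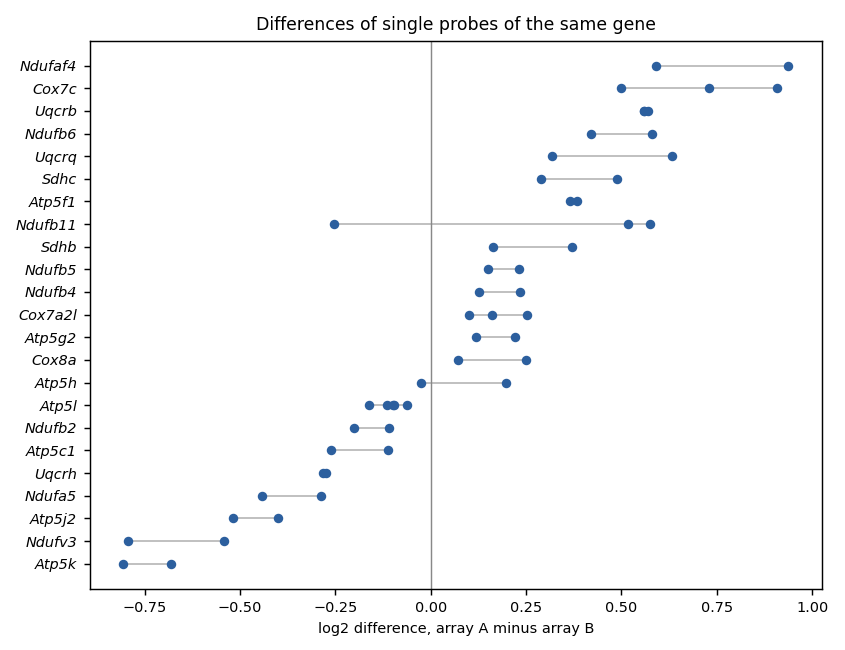
Log2 difference, array A minus array B (x axis), of each probe of the 23 genes with several measured probes, joined by a line for each gene. The median range between probes of a gene is 0.15, and some of these probes overlap in position. The range is widest in Ndufb11, at 0.83, and only Ndufb11 and Atp5h have probes on both sides of 0.

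The mitochondrially encoded partners of these subunits lay on the other side of 0. Of 13 such genes, 12 were measured, and all 12 were lower on array A, with a median of −0.68 and a range of −1.12 to −0.23. With scaling to the median, 10 of 12 were lower and the median was −0.39. Past 1.5-fold towards array B were 8 of the 12 (17.6% of all measured genes), and past 2-fold 4 (7.30%). These counts were 5 and 0 with scaling to the median, and 8 and 1 with normexp. Of all 14815 measured genes 2111 lay below the median of these 12, and of the 86 nuclear genes 4 did. At or below −0.7 were 13.8% of all measured genes, 6.82% of those in the brightest 3 deciles and 4.65% of the 86. In complex I, the median was −0.93 over 7 mitochondrial genes, against 0.10 over 36 nuclear genes. The largest of these differences was that of mt-Nd2, a proton-pumping membrane subunit, with 2.81 on array A versus 3.86 on array B (−1.05). The smallest was that of mt-Nd1, at 1.72 and 2.28 (−0.56), and of the nuclear genes of complex I only Ndufv3 was below it. In complex III, mt-Cytb, the cytochrome b gene, had 5.26 on array A versus 6.01 on array B (−0.75), against a nuclear median of 0.35. In complex IV the gap was smaller: mt-Co1, mt-Co2 and mt-Co3, the catalytic core, were at −0.27, −0.52 and −0.23, against a nuclear median of 0.15, and 4 of the 15 nuclear genes were below the mitochondrial median. In complex V, mt-Atp8 had 2.82 on array A versus 3.94 on array B (−1.12), and the nuclear median was 0.03. Scaling to the median turned mt-Co1 and mt-Co3 above 0.

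**Figure D4:**
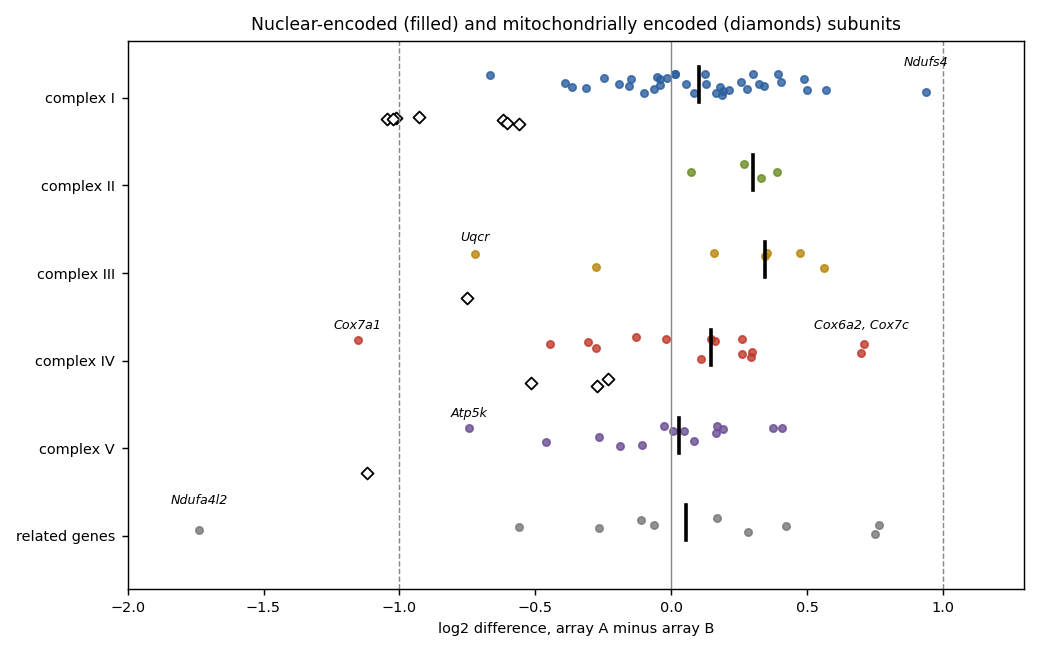
Log2 difference, array A minus array B (x axis), of each nuclear gene (filled points) with the median of each complex (black bar), and of each mitochondrially encoded subunit (open diamonds). Dashed lines mark 2-fold, vertical scatter within a row has no meaning, and all 12 diamonds lie below 0 with this scaling, 10 of them below 0 with scaling to the median.

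Other genes of the same pathway were near the nuclear subunits. Cytochrome c, Cycs, had 4.10 on array A versus 3.87 on array B (0.23), and Cyc1, the cytochrome c1 gene of complex III, had 4.82 and 4.58 (0.24). The medians of the assembly factor lists were 0.24 for complex I (13 genes), 0.08 for complex II (4), 0.42 for complex III (5), 0.08 for complex IV (16) and 0.15 for complex V (3), and 5 of the 41 genes over these lists (12.2%), Ndufaf2 and Ndufaf4 included, were past 1.5-fold towards array A, close to the 12.5% of all measured genes, and 0 towards array B (17.6%). Among them were Cox16, an assembly factor of complex IV, with 4.67 on array A versus 3.84 on array B (0.82), and Tmem70, an assembly factor of the ATP synthase, with 2.96 and 2.17 (0.79). Of 14 regulators of mitochondrial biogenesis, 13 were measured, with a median of 0.17. Past 1.5-fold towards array A was 1 of the 13 (12.5% of all measured genes), and towards array B 0 (17.6%). The 1 gene was Gabpb1, a subunit of the ETS-family factor GA-binding protein, with 0.49 on array A versus −0.37 on array B (0.86). The signs of the 13 regulators were mixed, with 7 differences above 0 and 6 below. Above 0, besides Gabpb1, were Tfb1m (0.52), Gabpa (0.34), Polrmt (0.27), Tfb2m (0.26), Nrf1 (0.23) and Yy1 (0.17). Below 0 were Twnk (−0.43), Ppargc1b (−0.20), Polg (−0.19), Pprc1 (−0.17), Esrra (−0.04) and Tfam (−0.02), which packages and transcribes mitochondrial DNA. The coactivator gene Ppargc1a passed the background call on neither array. The 14 citrate cycle enzymes had a median of 0.22, with 3 genes past 1.5-fold towards array A (12.5% of all measured genes) and 1 towards array B (17.6%). Dld, the shared lipoamide dehydrogenase, was the only one past 2-fold, with 3.47 on array A versus 2.36 on array B (1.12), and Idh2 was on the other side with 3.06 and 3.91 (−0.85). The 8 measured genes of coenzyme Q synthesis had a median of 0.16, with 2 past 1.5-fold towards array A (12.5% of all measured genes). The 5 genes of other electron carriers and entry points also had a median of 0.16. Of these 5, 1 was past 1.5-fold towards array A (12.5% of all measured genes) and 1 towards array B (17.6%).

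Promoters of these genes often hold motifs known from nuclear control of respiration. RefSeq promoters of GRCm38.p6, from 250 bases before to 50 after a start, were at hand for 74 of the 89 genes (80 promoters) and were searched on both strands for exact letters, among 32851 promoters in all. The letters GCGCANGCG, for NRF1, were in 22 of the 80 promoters (27.5%), against 6.25% of all promoters. The letters CCGGAAG, for ETS factors, were in 19 (23.8%), against 8.86% of all, and AAGATGGC, for YY1, in 12 (15%), against 2.75% of all. TATAAA was in 8 (10%), against 13.6% of all. The NRF1 letters can match both strands at overlapping places, and the ETS and YY1 letters can overlap at AAG, and a promoter counts once for each motif. A match is a description of the letters only. The measured genes with the NRF1 letters (21 genes) had a median difference of 0.07, against 0.16 for those without (51 genes). For the ETS letters these medians were 0.07 (19 genes) and 0.15 (53), and for the YY1 letters 0.13 (11) and 0.11 (61). For TATAAA the medians were −0.05 (5 genes) and 0.12 (67). A link between the letters and the differences was not tested.

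Among the genes at least 1.5-fold apart, the NRF1 letters were found in the promoters of Ndufaf4, which was higher on array A, and of Atp5k and Uqcr, which were higher on array B, and the YY1 letters in that of Ndufs4, higher on array A. The windows below show the matches in capitals with their flanks, 5′ to 3′ on the strand of the gene. That of Ndufaf4 is chr4:24897960-24897988 on the plus strand. On the minus strand are those of Atp5k, chr5:108434431-108434459, of Uqcr, chr10:80406808-80406836, and of Ndufs4, chr13:114388045-114388069. The NRF1 letters were thus present near the start of genes with differences of either sign. The ETS letters, which were in 23.8% of the 80 promoters, were also in those of Atp5k and Uqcr. They were in no promoter found for the genes past 1.5-fold towards array A. Not every gene had a promoter at hand, and these genes are too few to set the directions against each other.
Ndufaf4: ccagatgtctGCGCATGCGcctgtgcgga
Atp5k: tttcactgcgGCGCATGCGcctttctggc
Uqcr: atcgccttcaCGCATGCGCtatacgtctg
Ndufs4: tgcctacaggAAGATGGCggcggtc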

How the data were processed

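Total RNA of BaF/3 (#BEB1) and of parental Ba/F3 cells was amplified with cyanine 3 labelling for 1 Agilent whole mouse genome array per line. The authors deposited each array's spot intensity with the background subtracted by Feature Extraction. A second deposited table gives log2 values: in GeneSpring GX, the authors set signals under 1.0 to 1.0 and scaled each array by its 75th percentile. Here, the same steps were run on the deposited intensity of 43020 spots without controls, with repeated spots of 1 probe averaged. The lowest signal was 5.27 for array A versus 4.51 for array B, and no spot was saturated. Of 39429 probes, 19480 (49.4%) were well above background on array A versus 19659 (49.9%) on array B. Genes with several probes took the mean of those called above background on both arrays. Probe names came from a RefSeq gene table through accessions (26055), symbols (3195) or older symbols (930), with 9249 left as in the file. Members were matched on the name in the file.

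With 1 array per cell line no test was run, and the number of arrays limits the precision. The genes, lists and comparisons were chosen with earlier results of these data known. The genes named are those at least 1.5-fold apart, up to 3 per complex with the largest difference towards either array, isoforms and their partners, the core of complex I, all of complex II and genes whose probes disagreed, with others given to account for a complex. The alternatives were 3 other scalings, normexp with an offset of 50, looser filters, outlier spots left out, the median or brightest probe, a floor of 5.0 and the authors' log2 table. Leaving out tissue-restricted isoforms was added after the data were seen. The steps were tested on simulated arrays. The differences planted there were larger than nearly all of those reported here, so that test does not bear on small differences. The work used R 4.3.3 (limma 3.58.1) and Python 3.11.15 (numpy 2.4.6, pandas 2.3.3, matplotlib 3.10.9). The values of 1 gene are not reported here, although it is in the counts and medians.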

Additional observations from a re-analysis of the deposited data

How the results depend on the processing

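The scaling of the arrays decided most of the values that moved. With each array scaled to its median, the median difference, array A minus array B, was 0.42 over all 86 genes, 0.39 for complex I, 0.59 for complex II, 0.64 for complex III, 0.44 for complex IV and 0.32 for complex V. The counts were then 23 genes past 1.5-fold towards array A and 2 towards array B, and 4 past 2-fold towards array A and 1 towards array B. The median of all measured genes moved by 0.29 in this setting. The median of the 86 genes stayed 0.14 above it, a gap that could not change, since this scaling moves every gene by the same amount. With the 75th percentile of the probes well above background on both arrays, the medians were 0.044 over all 86 genes, 0.021 for complex I, 0.22 for complex II, 0.26 for complex III, 0.065 for complex IV and −0.054 for complex V. Quantile scaling, which does not move every gene alike, gave 0.020 for complex I, 0.25 for complex III and 0.26 for complex II. The median of the 86 genes then lay 0.03 above that of all measured genes, and that of complex I at −0.02 from it. Without a filter on dim probes, complex IV was at 0.044, with 3 dim genes added, and the median of all genes moved by −0.14. Of the 86 genes, 61.6% were higher on array A with the main scaling, 86% with the median, 53.5% with the probes well above background and 58.1% with quantiles. None of the 10 genes at least 1.5-fold apart changed sign in these or the other alternatives (0 genes), but some fell under 1.5-fold: Atp5k (−0.45), Uqcr (−0.43) and Ndufv3 (−0.38) with scaling to the median, Ndufv3 (−0.58) and Cox7c (0.54) with normexp, and Ndufv3 (−0.54) with the brightest probe. The other 93 values of the medians and counts moved by less than the set limits, and of the values of single genes 732 did so and 214 did not. Leaving out the tissue-restricted isoforms, an alternative chosen after the data were seen, gave 0.15 over all genes and 0.16 for complex IV. No paired analysis was possible because there was 1 array per cell line. The dim genes Ndufa4l2, Cox6b2 and Cox4i2 and the third probe of Cox7c lie close to background, which limits their values.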

Other observations

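Further subunits and assembly factors are listed in the scanner output under other names and so lie outside the naming rule. Of the subunits and small proteins of complexes I and V, Ndufb1 had a level of 0.55 on array A and 0.72 on array B (−0.17), Atp5md 5.15 and 4.96 (0.18), and Atp5mpl 4.90 and 5.17 (−0.27). Ndufaf5 differed by −0.06, Ndufaf6 by 0.44, Ndufaf7 by 0.24 and Ndufaf8 by 0.30, and the complex II factors Sdhaf3 and Sdhaf4 by 0.30 and −0.31. None of these was at least 1.5-fold apart. Ndufa11b, a near copy of Ndufa11, had 1.41 on array A and 0.86 on array B (0.54), while Ndufa11 itself was at 0.08.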
